A study of Mus musculus with 30 samples.

Results

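Malat1, Neat1, H19, Rn7sk, Meg3, Gas5 and Snhg1 are 7 genes whose RNAs are not translated, and they were picked by name from the 49315 rows of the count table. Each name matched 1 row, and all 7 passed the filter on low counts that left 17774 genes tested. They were chosen from earlier results on these same libraries, in which Malat1 and Rn7sk stood out between BALB/c macro-mets and BALB/c tumours and H19 between NSG DTC and NSG tumours. Values in those 2 comparisons are therefore given as descriptions, with no test, for every one of the 7. Every tested comparison of the 7, differences between hosts in a step included, shares at least 1 group with those 2. None is therefore independent of the choice. By counts, most of the 7 were abundant, but Meg3 was not. By mean log2 CPM (read counts scaled to library size with TMM factors) H19 stood at rank 317 of the 17774 genes, Gas5 at 842, Malat1 at 1094, Rn7sk at 1151, Neat1 at 1417 and Snhg1 at 2375, whereas Meg3 stood at 14307. By mean TPM, a level per length of transcript, the ranks were Rn7sk 27, H19 227, Gas5 982, Malat1 1622, Snhg1 2007, Neat1 5815 and Meg3 17435. A few libraries raised the mean TPM of Rn7sk, which was 3251 against a median of 978.9. BALB/c tumour replicate 4 alone held 35797.5.

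The 30 RNA libraries came from 4T1-tdTomato, a line of mouse breast carcinoma that carries a red fluorescent protein, recovered after growth in female mice and sorting for cells without DAPI or CD45 signal and with tdTomato. NSG mice, which lack T, B and NK cells, were set against BALB/c mice, the strain the line comes from. Each of the 6 groups held 5 libraries. NSG tumours (day 10) and BALB/c tumours (days 21 and 22) followed 200000 cells placed in the mammary fat pad. NSG DTC and BALB/c DTC (both lung, day 7, a term that the labels do not spell out), NSG macro-mets (lung, days 19 and 20) and BALB/c macro-mets (lung, days 21 and 23) followed 500000 cells given by the tail vein. No drug or further allele is named for any group. All groups rest on 1 cell line. Tumours differ from both lung stages also in injection route, organ and number of cells given, and the days of tumours and macro-mets differed between strains, so these cannot be told apart from stage or strain. Whether libraries came from separate animals is not said, so p-values measure the spread between libraries, which may be partly technical.

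Long non-coding RNAs act without being translated. Malat1 and Neat1 stay in the nucleus, where Malat1 gathers at nuclear speckles, stores of splicing factors, and Neat1 is the scaffold of paraspeckles. H19 and Meg3 are imprinted RNAs read from the maternal chromosome, and H19 also holds the precursor of a microRNA. Rn7sk (7SK) is a short RNA made by RNA polymerase III that holds the elongation kinase P-TEFb inactive. Gas5 and Snhg1 carry small nucleolar RNAs (snoRNAs) in their introns, and their spliced RNAs are short-lived because nonsense-mediated decay removes them. Gas5 RNA is also known to bind the glucocorticoid receptor, which bears on the glucocorticoids in the title of the study.

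In the GRCm38 assembly with GENCODE M21 annotation, Malat1 (chr19:5795690-5802672, minus strand) and Neat1 (chr19:5824708-5845478, minus strand) lie 22035 bp apart. Snhg1 (chr19:8723475-8726443, plus strand) lies 105 bp from Slc3a2 on the same chromosome. H19 lies at chr7:142575529-142578143 (minus strand), Meg3 at chr12:109541001-109571726 (plus strand), Gas5 at chr1:161034422-161038539 (plus strand) and Rn7sk at chr9:78175303-78175633 (minus strand). Gas5 overlaps the protein-coding gene Zbtb37 on the opposite strand, and the strand setting of the counts is not given in the sources used here, so reads of these 2 genes cannot be told apart where they overlap. Zbtb37 held 145 to 1411 counts per library. The transcripts differ widely in length, with 331 bases for Rn7sk and 20771 bases for the longest annotated Neat1 transcript.

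The sequences that give these RNAs their handling are short, and a few are shown as background. No level below was tested against them. The first stretch of Rn7sk holds 3 GATC motifs (capitals), an element of the 5′ hairpin at which HEXIM proteins bind human 7SK. Near the 3′ end of Malat1, 2 U-rich stretches and 1 A-rich stretch (capitals) form the triple helix that protects this RNA, which lacks an ordinary poly(A) tail. Both strands of the microRNA in H19 are given with their seeds (bases 2 to 8) in capitals, and the 2 seeds differ. Windows of 50 bases before to 50 after annotated starts of Gas5 and Snhg1 are shown with runs of at least 4 pyrimidines within 6 bases of the start in capitals, since snoRNA host genes are known for starts of that kind. Such a run was present at 1 of 2 Gas5 starts and at the Snhg1 start, against 41.8% of 32851 promoter windows. The first 2 sequences are from GENCODE M21 and the rest from RefSeq tables for GRCm38.p6.
Rn7sk, bases 1 to 110 of 331: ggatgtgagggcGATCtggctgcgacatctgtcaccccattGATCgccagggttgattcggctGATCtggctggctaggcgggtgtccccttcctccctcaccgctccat
Malat1, bases 6600 to 6760 of 6983: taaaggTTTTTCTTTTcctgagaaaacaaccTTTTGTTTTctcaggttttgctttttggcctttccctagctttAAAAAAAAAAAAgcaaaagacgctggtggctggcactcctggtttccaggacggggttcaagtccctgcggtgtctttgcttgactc
mmu-miR-675-5p: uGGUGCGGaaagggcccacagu
mmu-miR-675-3p: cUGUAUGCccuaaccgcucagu
Gas5, chr1:161034551-161034650, plus strand: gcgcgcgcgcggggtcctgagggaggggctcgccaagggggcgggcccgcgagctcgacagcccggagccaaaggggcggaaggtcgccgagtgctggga
Gas5, chr1:161035116-161035215, plus strand: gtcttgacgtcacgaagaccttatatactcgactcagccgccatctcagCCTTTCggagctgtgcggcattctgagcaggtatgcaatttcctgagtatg
Snhg1, chr19:8723437-8723536, plus strand: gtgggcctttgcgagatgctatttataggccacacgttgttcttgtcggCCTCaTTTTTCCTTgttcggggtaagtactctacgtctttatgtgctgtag

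Total counts ran from 29832098 to 65621525 per library. In 4 libraries fewer genes had any count (17517 to 19049, against 19563 to 22187 in the other 26): NSG tumour replicates 2 and 3, NSG macro-met replicate 3 and BALB/c tumour replicate 4. Their summed level of 14 skeletal muscle markers, 13 of which were tested, was 216.8, 274.1, 413.4 and 1046 CPM in that order. The other 26 held 21.96 to 77.24 CPM. More genes reached 1 CPM in each of the 4 than in any library of its group outside the 4. In NSG tumours the counts were 12312 and 12343, against 11786 to 11843 in the others. NSG macro-met replicate 3 had 12615 (others 11869 to 11949) and BALB/c tumour replicate 4 had 13837 (others 12162 to 12785). Few genes, for the 4 libraries below, therefore means few with any count. A further 2 libraries, BALB/c DTC replicates 1 and 2, held 3508 and 1522 CPM of 15 lung epithelium markers, against 28.17 to 305.0 CPM elsewhere. Markers of breast carcinoma and 4T1 cells summed to 4458 CPM or more in every library. Calls of the 7 RNAs that depend on the 4 libraries are given below with and without them. Without the 2 libraries rich in lung markers, 2 tested values gained a call and 1 lost it: Snhg1 in NSG macro-mets against NSG DTC (-0.45, adjusted p = 0.0357), and the difference between hosts in macro-met against DTC for Malat1 (-1.89, adjusted p = 0.0438) and for Rn7sk (4.06, adjusted p = 0.0586, lost). The direction of that Snhg1 value depended on the processing, as given below. With bulk RNA, fewer cells of a type and less RNA per cell cannot be told apart.

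**Figure D1:**
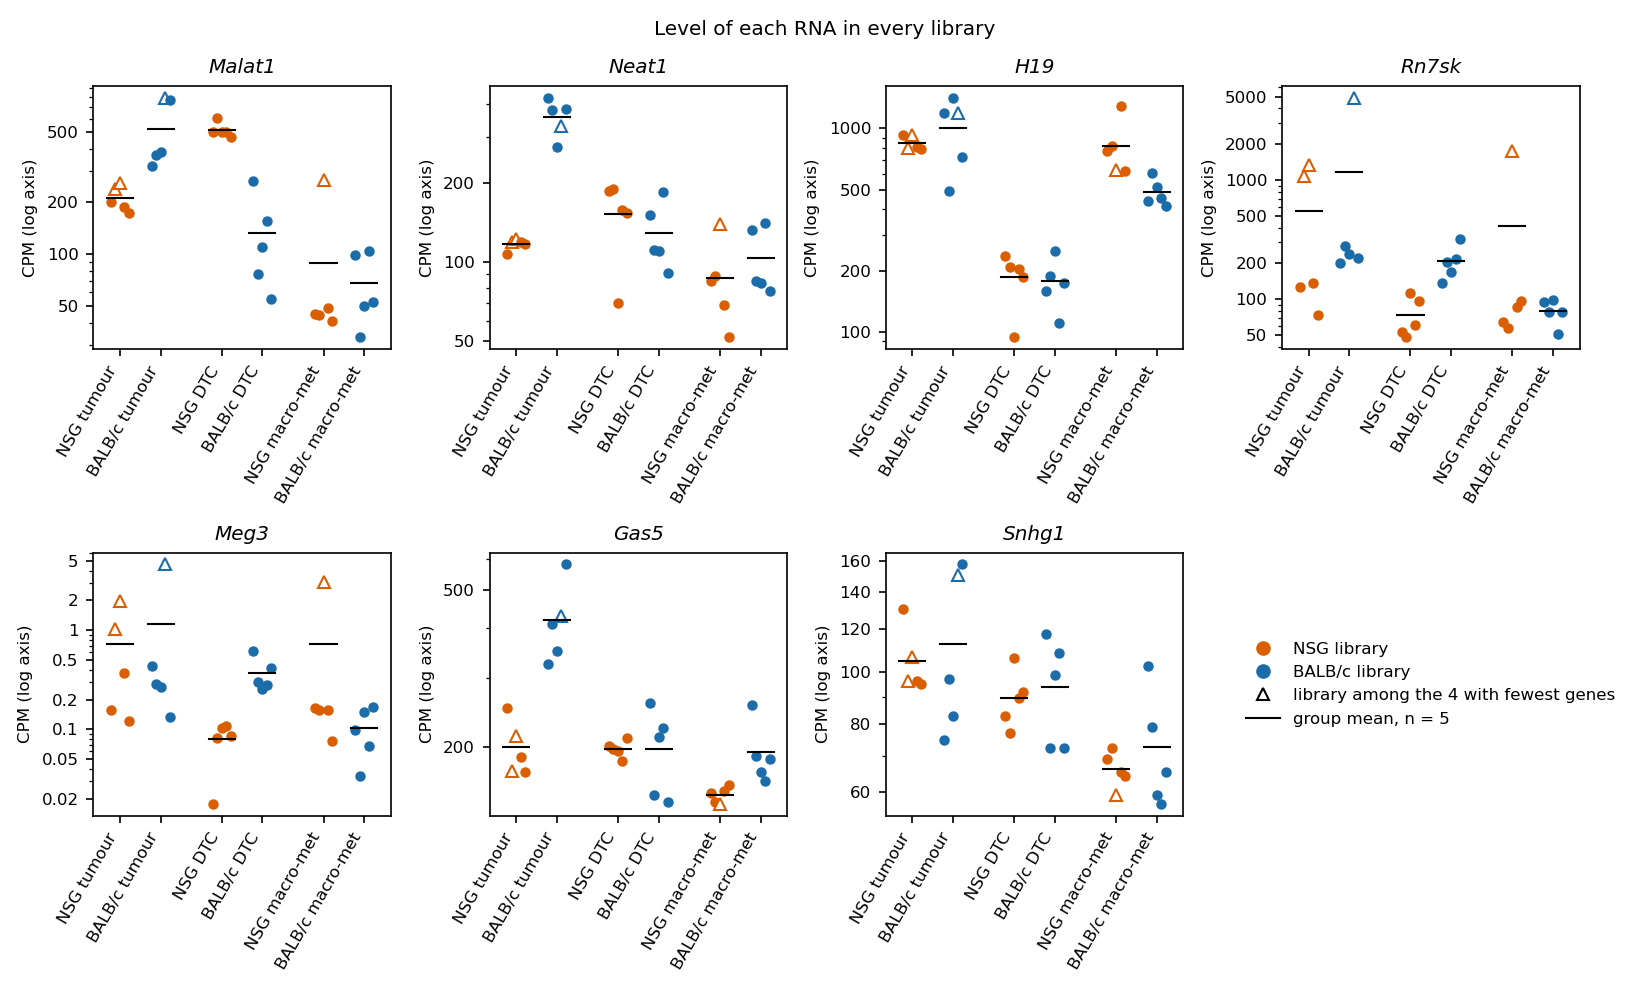
CPM of the 7 RNAs on log axes, 1 point per library. NSG is left of BALB/c at each stage, and black lines are means of 5 libraries. Open triangles are the 4 libraries with the fewest genes that had any count. Rn7sk and Meg3 were highest in the triangles, H19 was low in both DTC groups, and Neat1 and Gas5 were highest in BALB/c tumours.

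Malat1 changed in opposite directions between DTC and tumour in the 2 hosts. NSG tumours held 199, 235, 256, 186 and 173 CPM, NSG DTC 504, 602, 503, 505 and 473 CPM, and NSG macro-mets 45.4, 44.8, 266, 48.6 and 41.3 CPM. BALB/c tumours held 322, 370, 384, 789 and 766 CPM, BALB/c DTC 262, 76.6, 110, 155 and 55.1 CPM, and BALB/c macro-mets 97.9, 33.2, 50.1, 104 and 52.6 CPM. Every NSG DTC library was above every NSG tumour library, and every BALB/c DTC library was below every BALB/c tumour library, so neither pair overlapped. The NSG pair helped to choose these RNAs, so its separation is given only as a description. The share of all genes that separate in this way was not computed. Among the BALB/c tumours the 2 libraries of day 21 (322 and 370 CPM) were the lowest, and those of day 22 held 384 to 789 CPM.

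BALB/c DTC averaged 132 ± 81.8 CPM of Malat1 and BALB/c tumours 526 ± 231 CPM (SD, n = 5 each, as for all averages below). The log2 fold change was -1.999 ± 0.47 (SE, as for all log2 fold changes below; edgeR quasi-likelihood test, Benjamini-Hochberg adjusted p = 0.00136 over all genes tested, as for all adjusted p below). NSG DTC averaged 518 ± 49.1 CPM and NSG tumours 210 ± 34.7 CPM, a log2 fold change of 1.30 ± 0.46, given with no test. With offsets for GC content and length of genes, fitted per library, that value was 0.62. With each of the 10 libraries left out in turn it was 1.2 to 1.36, also given with no test. The difference between the hosts in the DTC against tumour change was 3.30 ± 0.66 (adjusted p = 0.000348). That difference uses the NSG libraries of the untested change, so it is not independent of the choice. NSG DTC were also above BALB/c DTC with no overlap (1.98 ± 0.47, adjusted p = 0.00138), whereas NSG tumours were below BALB/c tumours (-1.33 ± 0.46, adjusted p = 0.0377). The last call was lost on leaving out any 1 of 6 libraries, BALB/c tumour replicates 4 and 5 and NSG tumour replicates 1, 2, 4 and 5 (adjusted p 0.0589 to 0.101), without the filter on low counts (adjusted p = 0.0826) and with GC and length offsets (-1.03, adjusted p = 0.0786).

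Malat1 was lowest in macro-mets. NSG macro-mets averaged 89.2 ± 98.8 CPM, a mean raised by replicate 3 at 266 CPM, and stood below NSG DTC (-2.54 ± 0.48, adjusted p = 9.97e-05) with no overlap. Against NSG tumours they were lower by a smaller step (-1.23 ± 0.46, adjusted p = 0.0447), and that call was lost on leaving out 9 of the 10 libraries one at a time and in 5 other alternatives (adjusted p 0.0506 to 0.132 in those 5). Without NSG macro-met replicate 3, the remaining omission, it was -2.27, and without the 4 libraries with few genes -2.11 (adjusted p = 0.000337), both called. BALB/c macro-mets averaged 67.7 ± 31.6 CPM, a log2 fold change of -2.96 ± 0.49 against BALB/c tumours, given with no test. Against BALB/c DTC the change was -0.96 ± 0.46 (adjusted p = 0.118). That value became a call without the 4 libraries with few genes (-0.99, adjusted p = 0.0158). The hosts differed in the macro-met against DTC step by -1.58 (adjusted p = 0.0713), and without NSG macro-met replicate 3 by -2.62, then called (adjusted p = 0.000286).

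Neat1 was highest in BALB/c tumours. NSG DTC held 188, 191, 70.2, 158 and 154 CPM and NSG tumours 107, 119, 122, 120 and 117 CPM. BALB/c DTC held 151, 111, 111, 185 and 91.3 CPM and BALB/c tumours 423, 379, 276, 331 and 383 CPM. No library of the other 3 of these groups reached the lowest BALB/c tumour. NSG tumours were lower than BALB/c tumours (log2 fold change -1.61 ± 0.25, adjusted p = 1.68e-05), and so were BALB/c DTC (-1.47 ± 0.25, adjusted p = 2.52e-05). In NSG DTC the change from NSG tumours was 0.38 ± 0.24, given with no test, and the hosts differed in this step by 1.84 ± 0.34 (adjusted p = 0.000139), a call that was lost with GC and length offsets (0.73, adjusted p = 0.115).

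Macro-mets held 84.6, 89.0, 140, 68.7 and 51.8 CPM of Neat1 in NSG hosts and 133, 84.9, 83.5, 141 and 78.0 CPM in BALB/c hosts, so the hosts overlapped. NSG macro-mets were below NSG DTC (-0.81 ± 0.24, adjusted p = 0.00747), but with GC and length offsets the difference was 0.02. Against NSG tumours the change of -0.43 ± 0.24 missed the threshold (adjusted p = 0.183), and without NSG macro-met replicate 3 it was -0.72 and called (adjusted p = 0.0251), but without all 4 libraries with few genes -0.71 and not called (adjusted p = 0.0611). The hosts differed in the macro-met against tumour step by 1.35 ± 0.34 (adjusted p = 0.0175), and without that library by 1.08, no longer called (adjusted p = 0.0521), nor without the 4 libraries with few genes (1.11, adjusted p = 0.0896) or with GC and length offsets (1.05, adjusted p = 0.0608).

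Within a library, the count ratio of Malat1 to its neighbour Neat1 lay at 2.69 to 7.17 among NSG DTC, against 1.47 to 2.09 among NSG tumours, with no overlap. The NSG pair helped to choose these RNAs, so this separation is given only as a description. The share of gene pairs that separate in this way was not computed. The ratio of 7.17 was that of NSG DTC replicate 3, in which Neat1 was lowest in its group (70.2 CPM). It was 0.604 to 1.73 in BALB/c DTC, against 0.760 to 2.38 in BALB/c tumours. Per length, Malat1 stood above Neat1 in every library, at 1.16 to 21.3 times its TPM (a level per length of transcript, deposited by the authors).

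**Figure D2:**
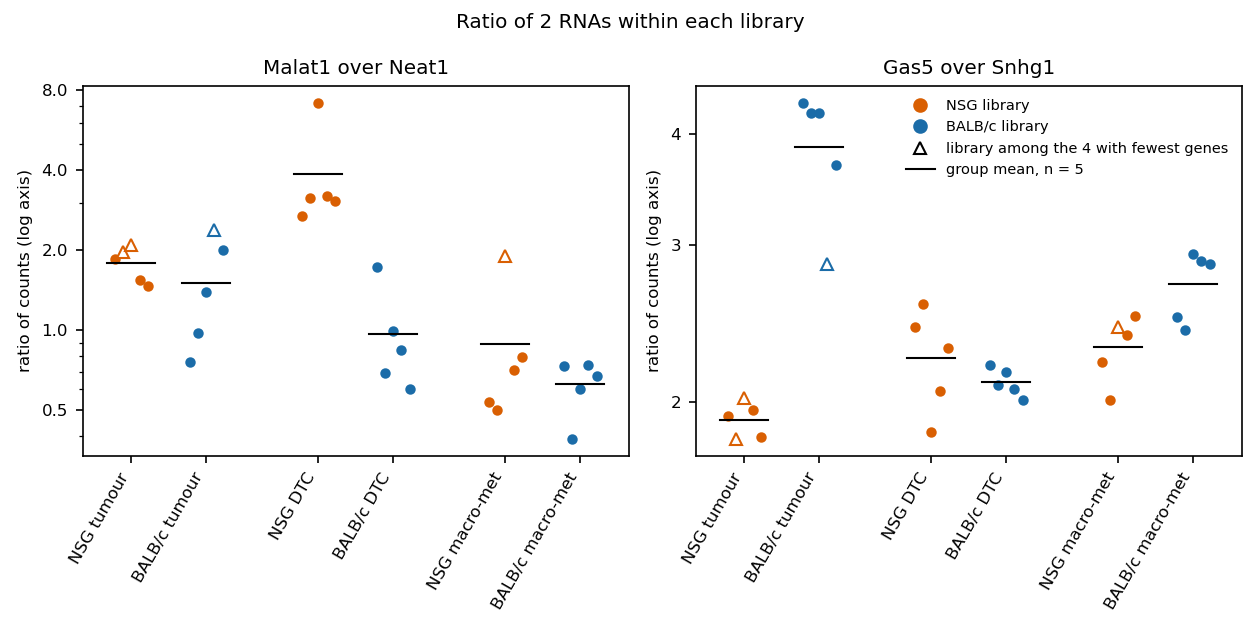
Count ratios of Malat1 over Neat1 (left) and Gas5 over Snhg1 (right) on log axes, 1 point per library, with NSG left of BALB/c at each stage and black lines for means of 5. The first ratio was highest in NSG DTC, at 2.69 to 7.17, and the second in BALB/c tumours, at 2.86 to 4.33. NSG DTC against NSG tumours helped to choose the RNAs, so that gap is a description.

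H19 was low in DTC of both hosts and higher again in macro-mets. NSG tumours held 926, 802, 923, 814 and 792 CPM, NSG DTC 236, 208, 94.2, 204 and 186 CPM, and NSG macro-mets 776, 815, 623, 1284 and 619 CPM. BALB/c tumours held 1186, 494, 1411, 1193 and 724 CPM, BALB/c DTC 159, 189, 251, 110 and 174 CPM, and BALB/c macro-mets 440, 605, 513, 452 and 417 CPM. No DTC library of either host reached the lowest tumour or macro-met library. H19 was chosen on NSG DTC against NSG tumours, so the gap in that pair follows from the choice.

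BALB/c DTC averaged 177 ± 51.1 CPM of H19 and BALB/c tumours 1001 ± 378 CPM, a log2 fold change of -2.50 ± 0.26 (adjusted p = 1.7e-08). NSG DTC averaged 186 ± 54.0 CPM and NSG tumours 851 ± 67.3 CPM (-2.20 ± 0.26, with no test), and the hosts' steps differed by 0.30 ± 0.35 (adjusted p = 0.548). NSG macro-mets rose above NSG DTC by 2.15 ± 0.26 (adjusted p = 1.13e-07) and BALB/c macro-mets above BALB/c DTC by 1.46 ± 0.25 (adjusted p = 5.73e-05). NSG macro-mets differed from NSG tumours by -0.05 ± 0.25 (adjusted p = 0.908), and BALB/c macro-mets from BALB/c tumours by -1.04 ± 0.25, given with no test. NSG macro-mets held more H19 than BALB/c macro-mets in every library, a difference of 0.76 ± 0.25 that missed the threshold (adjusted p = 0.103). The 3 tested calls kept their direction and their side of the threshold in every alternative run, the omission of each library in turn included. The call in NSG macro-mets and the host difference of 0.30 use the NSG DTC libraries on which H19 was chosen, so neither is independent of that choice.

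H19 lies 72622 bp from Igf2, the paternally expressed growth factor gene of the same imprinted domain. Igf2 was far lower than H19, at 0.0495 to 23.5 CPM, and it also rose in macro-mets over DTC, by 4.90 on the log2 scale in NSG hosts (adjusted p = 4.2e-05) and by 3.01 in BALB/c hosts (adjusted p = 0.00561). The microRNA gene inside H19, Mir675, whose mature sequences are given above, had 0 counts in all 30 libraries. The mature microRNA was not analysed here. Every other gene wholly inside any of the 7 also had 0 counts, among them Gm26906, a long non-coding RNA gene inside Meg3. How reads of overlapping genes were assigned is not given in the sources used here, so these zeros are not read as absence.

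Meg3 was near the limit of detection, with 1 to 211 counts per library. NSG macro-mets held 0.166, 0.157, 3.06, 0.157 and 0.0760 CPM, NSG tumours 0.157, 1.03, 1.99, 0.368 and 0.122 CPM, and BALB/c tumours 0.434, 0.289, 0.269, 4.61 and 0.133 CPM. The remaining groups lay at 0.0178 to 0.108 CPM (NSG DTC), 0.258 to 0.612 CPM (BALB/c DTC) and 0.0343 to 0.170 CPM (BALB/c macro-mets). The 4 libraries with few genes held the 4 highest values, and the other libraries of their groups stayed at or below 0.434 CPM.

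Between NSG macro-mets and NSG DTC, Meg3 differed by 3.16 ± 1.03 (adjusted p = 0.0129), but without NSG macro-met replicate 3 the value was 0.77 (adjusted p = 0.529). The hosts differed in that step by 4.99 ± 1.43 (adjusted p = 0.00882), without the same library by 2.58 (adjusted p = 0.125), and without all 4 libraries by 2.67, still called (adjusted p = 0.0126). Both calls, made with all libraries, were also lost with limma's voom (1.89, adjusted p = 0.161, and 3.80, adjusted p = 0.0584) and on either log2 TPM scale. Without the 4 libraries, BALB/c macro-mets were below BALB/c DTC (-1.86, adjusted p = 0.00857; -1.83 ± 0.99 and adjusted p = 0.171 with them), and NSG DTC were below BALB/c DTC (-2.27, adjusted p = 0.00149; -2.20 ± 1.01 and adjusted p = 0.0869 with them). The untested values were -3.44 ± 1.03 for BALB/c macro-mets against BALB/c tumours, or -1.45 without BALB/c tumour replicate 4, and -3.17 ± 1.03 for NSG DTC against NSG tumours, or -1.51 without the 4 libraries. Values that single libraries moved to a call were -2.41 for NSG macro-mets against NSG tumours without NSG macro-met replicate 3 (adjusted p = 0.0452), or -0.70 and not called without all 4 (adjusted p = 0.458), and -3.55 for the host difference in DTC against tumour without BALB/c tumour replicate 4 (adjusted p = 0.0262).

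Rn7sk gave the widest spread, a 102-fold range over the 30 libraries, and 4 libraries made most of it. NSG macro-mets held 64.0, 57.8, 1756, 85.5 and 96.6 CPM, NSG tumours 126, 1089, 1342, 137 and 73.5 CPM, and BALB/c tumours 201, 280, 241, 4897 and 220 CPM. The 4 values over 1000 CPM were those of the 4 libraries with few genes, and no other library exceeded 319 CPM. NSG DTC held 53.2, 48.0, 113, 60.5 and 97.3 CPM, BALB/c macro-mets 94.1, 78.4, 98.2, 50.9 and 77.5 CPM, and BALB/c DTC 137, 204, 169, 219 and 319 CPM. In BALB/c tumour replicate 4 this RNA, 331 bases long, took 0.516% of all counts.

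With all libraries, 1 of the tested Rn7sk comparisons was called, the difference between hosts in the macro-met against DTC step (3.86 ± 1.43, adjusted p = 0.0457), and without NSG macro-met replicate 3 it was 1.40 (adjusted p = 0.415), whereas without all 4 it was 1.48 and called (adjusted p = 0.00197). That call was lost on leaving out 15 of the 20 libraries one at a time and in 6 other alternatives (adjusted p 0.0586 to 0.219 in those 6). Leaving out the 4 libraries moved 3 comparisons to a call. BALB/c macro-mets were then below BALB/c DTC (-1.43, adjusted p = 3.65e-05; -1.39 ± 1.00 and adjusted p = 0.317 with them), NSG DTC below BALB/c DTC (-1.57, adjusted p = 9.61e-06; -1.50 ± 1.00 and adjusted p = 0.256 with them), and NSG tumours below BALB/c tumours (-1.04, adjusted p = 0.0115; -1.08 ± 0.99 and adjusted p = 0.458 with them). For NSG macro-mets against NSG tumours the value was -0.43 ± 0.98 (adjusted p = 0.789) with all libraries and -0.63 without the 4 (adjusted p = 0.106), but -2.91 and called without NSG macro-met replicate 3 alone (adjusted p = 0.0208), which keeps the 2 high NSG tumours. Values near the threshold shrank without the 4: NSG macro-mets against NSG DTC were at 2.47 with all libraries (adjusted p = 0.0554) and 0.05 without them, and BALB/c DTC against BALB/c tumours at -2.48 (adjusted p = 0.0566) and -0.14. The untested value for BALB/c macro-mets against BALB/c tumours was -3.87 ± 1.10, or -1.58 without BALB/c tumour replicate 4, and that for NSG DTC against NSG tumours was -2.90 ± 1.05, or -0.68 without the 4 libraries. Near copies of Rn7sk in the annotation, 18 genes with at least 85% identity over 200 bp, held 529 counts in all, against 606551 for Rn7sk.

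Of 13 other short structured RNAs, 5 were higher in each of those 4 libraries than in any of the other 26, 11 were highest in 1 of the 4, and Terc and Scarna6 were highest elsewhere. Rmrp, the RNA of RNase MRP, held 8.64 to 75.4 CPM there and 0.703 to 5.08 CPM in the other 26, and Rpph1, the RNA of RNase P, 18.0 to 103 CPM there and 0.901 to 8.23 CPM in the others. The gene whose pattern was most like that of Rn7sk over the 30 libraries was Ttn, which encodes titin, the giant protein of striated muscle, with a root mean square difference of 0.198 in centred log2 CPM. The count ratio of Rn7sk to Ttn stayed at 5.83 to 9.78, a 1.68-fold range, while Rn7sk ranged over 102-fold. Next came Krt10 (0.511) and Krt5 (0.883), both keratins. Over the whole list of 14 skeletal muscle markers, 8 were higher in each of the 4 libraries than in any of the other 26, and all 14 were highest in 1 of the 4. For this list and the short RNAs, the share of all genes with such patterns was not computed. The counts are therefore no result about either list. Ttn held 112 to 650.1 CPM in the 4 and at most 41.3 CPM in the others, Atp2a1 18.2 to 114 CPM and at most 7.04, Neb 15.6 to 78.7 CPM and at most 5.25, and Acta1 5.05 to 35.9 CPM and at most 2.15. The other 6 overlapped, among them Tnnt3 (13.5 to 20.7 CPM in the 4, at most 20.0 in the others) and Tnnc2, which was at 0 in some of the 4 and reached 0.437 CPM. The part of muscle RNA or of library quality in the Rn7sk values was not tested.

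**Figure D3:**
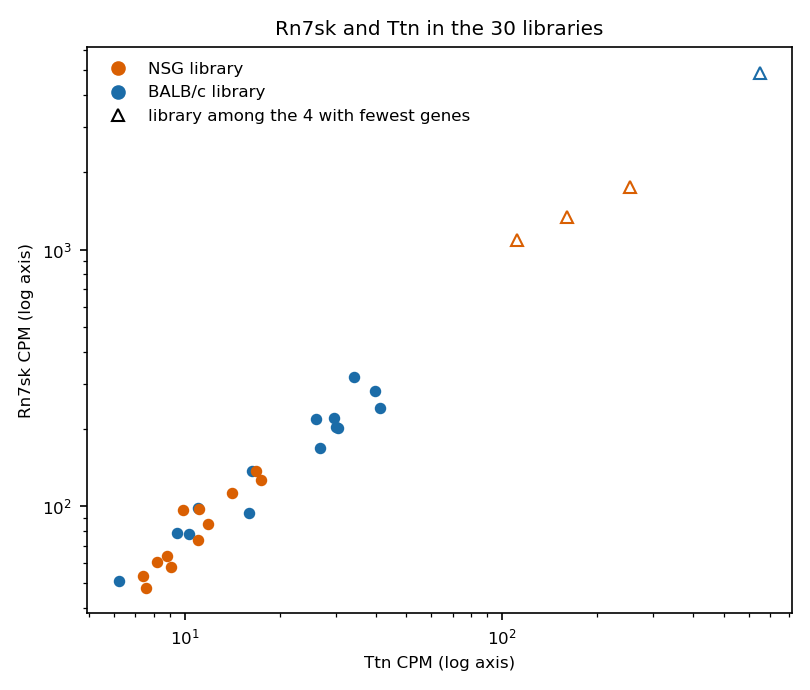
Rn7sk against Ttn in CPM on log axes, 1 point per library, NSG in orange, BALB/c in blue. Open triangles are the 4 libraries with the fewest genes that had any count. The points follow 1 line, with a count ratio of 5.83 to 9.78, and the triangles are the 4 highest.

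Gas5 was highest in BALB/c tumours. NSG tumours held 252, 175, 214, 189 and 173 CPM, NSG DTC 201, 198, 195, 184 and 211 CPM, and NSG macro-mets 153, 145, 144, 155 and 160 CPM. BALB/c tumours held 324, 409, 350, 431 and 581 CPM, BALB/c DTC 259, 151, 213, 224 and 145 CPM, and BALB/c macro-mets 256, 191, 174, 165 and 187 CPM. The lowest BALB/c tumour library was above every library of the other 5 groups.

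Gas5 in NSG tumours was below that in BALB/c tumours (-1.06 ± 0.15, adjusted p = 4.1e-06), and so was that in BALB/c DTC (-1.08 ± 0.15, adjusted p = 1.43e-06). Both calls held in every alternative run. NSG DTC and NSG tumours averaged 198 ± 9.86 and 201 ± 33.1 CPM (-0.02 ± 0.15, with no test), and the hosts differed in this step by 1.06 ± 0.21 (adjusted p = 0.00025). That difference was 0.09 with GC and length offsets (adjusted p = 0.768). NSG macro-mets were slightly below NSG DTC (-0.39 ± 0.15, adjusted p = 0.0359), a direction that turned round with those offsets (0.50) and a call lost on leaving out NSG DTC replicate 1, 2 or 5 or NSG macro-met replicate 2 (adjusted p 0.0578 to 0.0665), and below NSG tumours (-0.40 ± 0.15, adjusted p = 0.0392), a call lost with them (-0.08) and without NSG tumour replicate 1 or NSG macro-met replicate 2. Without the 4 libraries with few genes neither was called (-0.35, adjusted p = 0.0878, and -0.48, adjusted p = 0.0645). BALB/c macro-mets averaged 194 ± 36.0 CPM, a change of -1.11 ± 0.15 from BALB/c tumours given with no test. The hosts differed in the macro-met against tumour step by 0.71 ± 0.21 (adjusted p = 0.0452), a call lost on leaving out 15 of the 20 libraries one at a time (0.56 to 0.72 among those that lost it) and without the 4 libraries (0.63, adjusted p = 0.171).

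Snhg1 varied least, over a 2.76-fold range. NSG tumours held 131, 96.0, 106, 96.1 and 94.9 CPM, NSG DTC 82.8, 77.0, 106, 89.3 and 91.8 CPM, and NSG macro-mets 69.0, 72.5, 59.3, 65.3 and 64.2 CPM. BALB/c tumours held 74.9, 96.9, 82.9, 151 and 158 CPM, BALB/c DTC 118, 72.4, 98.6, 108 and 72.2 CPM, and BALB/c macro-mets 103, 79.2, 59.2, 57.1 and 65.3 CPM. NSG macro-mets were lower than NSG tumours with no overlap (-0.67 ± 0.18, adjusted p = 0.006), a call lost with GC and length offsets (-0.22). No other tested comparison of Snhg1 was called in the main fit. Against NSG DTC, NSG macro-mets were at -0.44 ± 0.18 (adjusted p = 0.0512), a direction that turned round, and was then called, with those offsets. The same held for the host differences in DTC against tumour and in macro-met against DTC. BALB/c macro-mets differed from BALB/c tumours by -0.63 ± 0.18, given with no test, and by 0.14 with those offsets.

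The 2 snoRNA hosts differed most from each other in BALB/c tumours, where the count ratio of Gas5 to Snhg1 was 2.86 to 4.33, against 1.82 to 2.02 in NSG tumours. In BALB/c macro-mets it was 2.41 to 2.93, which overlapped the BALB/c tumours. None of the 18 snoRNA genes inside them, 10 in Gas5 and 8 in Snhg1, had a count in any library. The same held for every gene wholly inside any of the 7, so these zeros are not read as absence of snoRNAs. The genes most like Gas5 over the 30 libraries were Katna1 (root mean square difference 0.268), Nsa2 (0.288) and Gsap (0.290), and those most like Snhg1 were Rpl7 (0.206), Med21 (0.218) and Immp1l (0.242). For Malat1 they were Kmt2c (0.484), Dsp (0.525) and Smg1 (0.529), for Neat1 Fam193b (0.457), Esrp1 (0.461) and Snx10 (0.519), for H19 Adssl1 (0.382), Lsp1 (0.492) and P4ha1 (0.521), and for Meg3 Ttn (0.607), Krt10 (0.633) and Scd1 (0.901).

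**Figure D4:**
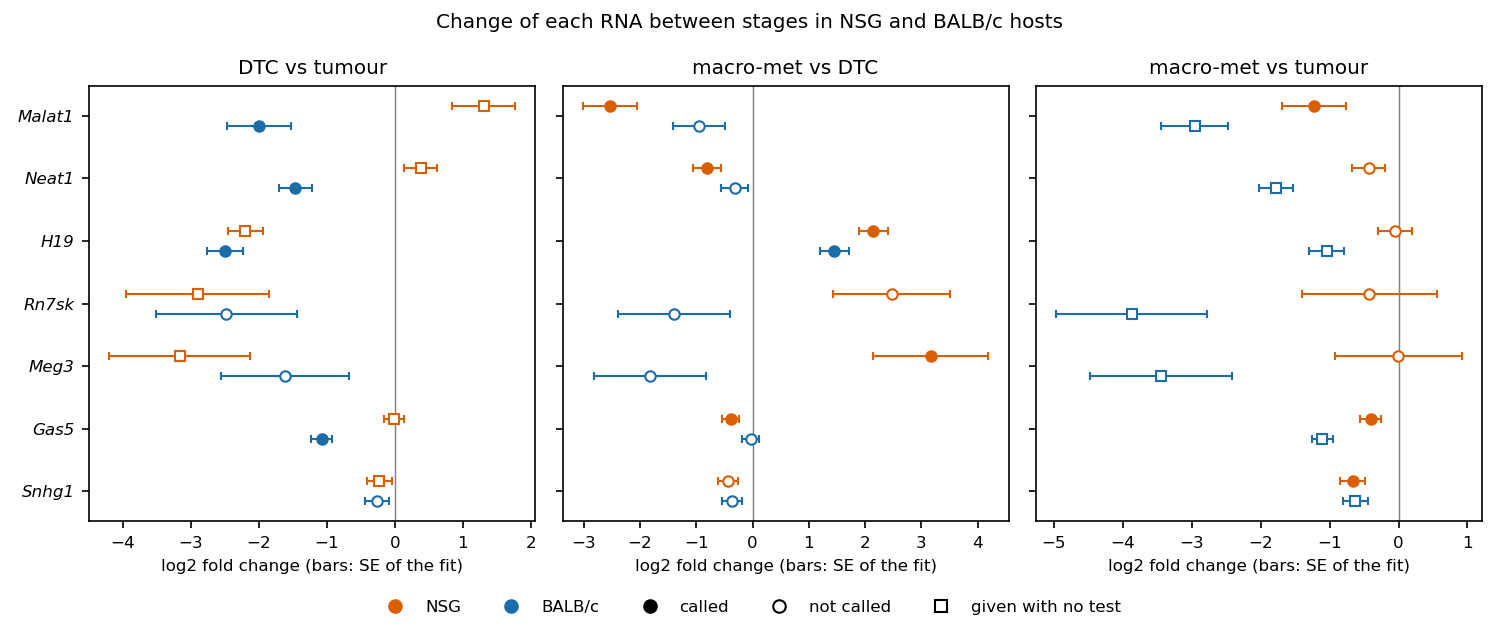
Log2 fold changes between stages, points with bars of 1 SE, NSG above BALB/c for each RNA, filled where the adjusted p was under 0.05, with squares for the 2 comparisons given with no test. Malat1 was at 1.30 in NSG and -1.999 in BALB/c between DTC and tumour, and H19 moved the same way in both hosts in the first 2 panels.

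Over the 7 RNAs, the counts of calls stood beside high shares of calls over all genes. Within NSG hosts, no count is given between DTC and tumours, a comparison that helped to choose the 7. Between NSG macro-mets and NSG DTC 5 of 7 were called (43.7% of all genes), and between NSG macro-mets and NSG tumours 3 of 7 (30.5%). Within BALB/c hosts, 4 of 7 were called between DTC and tumours (41.4%), 1 of 7 between macro-mets and DTC (30.8%) and 7 of 7 between macro-mets and tumours (37.8%), of which the last also helped to choose them. Between hosts, NSG against BALB/c, 3 of 7 were called in tumours (23.6%), 1 of 7 in DTC (38.8%) and 0 of 7 in macro-mets (2.64%). In macro-mets, edgeR gave 4 of the 7 an unadjusted p under 0.05 (15.5% of all genes) and DESeq2 called 2, H19 and Meg3 (5.13%). The 4 were H19, Rn7sk, Meg3 and Gas5. Single libraries moved 2 of them widely. With each of the 10 libraries left out in turn, the log2 fold change ran from -0.1 to 2.66 for Rn7sk and from 0.4 to 3.09 for Meg3. The host difference in a step was called for 3 of 7 in DTC against tumour (33.4%), 2 of 7 in macro-met against DTC (28.1%) and 2 of 7 in macro-met against tumour (5.23%).

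The gene lists read beside them were chosen with earlier results of these data known, and each count is given with the share of all genes called in that comparison. Where these are close, the count is no result about the list. Of 18 tested long non-coding RNAs other than the 7, 8 were lower and 1 higher in BALB/c DTC than in BALB/c tumours (41.4% of all genes were called; median log2 fold change -1.27, against -0.09 over all genes), with Firre at -1.86, Tug1 at -1.31 and Mir99ahg at -1.61. In NSG DTC 3 were higher than in NSG tumours and none lower (25.5% of all genes; median 0.46, against 0.06), Tug1 among them at 1.18. Between NSG macro-mets and NSG DTC 8 were lower and none higher (43.7% of all genes), with Tug1 at -2.18, Mir17hg at -2.72 and Dleu2 at -2.15. Between hosts, 7 were higher in NSG DTC than in BALB/c DTC and none lower (38.8% of all genes), with Tug1 at 1.77, Firre at 1.48 and Ftx at 1.56. With GC and length offsets, 2 were higher and 2 lower in that last comparison, 2 higher and 5 lower in NSG macro-mets than in NSG DTC, and 1 higher and 4 lower in BALB/c DTC than in BALB/c tumours.

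Of 18 tested snoRNA host RNAs, a list that holds Gas5 and Snhg1, 4 were lower and none higher in BALB/c DTC than in BALB/c tumours (41.4% of all genes), with Zfas1 at -1.26 and Snhg12 at -0.79 beside Gas5. Between NSG and BALB/c tumours 4 were lower and none higher (23.6% of all genes), with Zfas1 at -0.62 and Epb41l4aos at -0.80. Of 10 nonsense-mediated decay factors, 4 were higher and 1 lower in NSG DTC than in BALB/c DTC (38.8% of all genes). The kinase Smg1 (2.51) and Upf2 (2.20) were among those higher. Between NSG macro-mets and NSG DTC 3 were higher and 4 lower (43.7% of all genes), with Smg6 at 1.13, Smg1 at -3.37 and Upf2 at -3.47, and with the offsets 2 higher and 4 lower.

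Protein partners of the nuclear RNAs moved in mixed directions. Of 14 nuclear speckle proteins, 5 were higher and none lower in NSG DTC than in BALB/c DTC (38.8% of all genes), with Son at 1.27, Srsf11 at 0.93 and Srrm2 at 0.97, but with GC and length offsets 2 were higher and 7 lower. Between NSG macro-mets and NSG DTC 2 were higher and 7 lower (43.7%), with Son at -1.39, Srsf11 at -0.79 and Pnn at -2.19, and with the offsets 5 higher and 3 lower. Of 14 paraspeckle proteins, 5 were higher and 2 lower in BALB/c DTC than in BALB/c tumours (41.4%), with Rbm14 at 0.81, Sfpq at 0.53 and Dazap1 at 0.66, and with the offsets 9 higher and 1 lower. Of 13 genes of the 7SK particle and P-TEFb, 6 were higher and 1 lower in NSG DTC than in BALB/c DTC (38.8%), with Aff4 at 1.93, Ccnt2 at 1.13 and Aff1 at 0.72, and with the offsets 4 higher and 3 lower. None of the speckle, paraspeckle and 7SK lists had a member called by edgeR between the macro-mets of the 2 hosts. Of 18 tested imprinted genes, H19 and Meg3 included, 4 were higher and 4 lower in NSG macro-mets than in NSG DTC (43.7%), with Gnas at 0.73 and Igf2 at 4.90 besides H19 and Meg3, and Nnat among those lower, and with the offsets 7 higher and 2 lower. The values of all these list genes are log2 fold changes whose adjusted p was under 0.05 over all genes tested with edgeR.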

How the data were processed

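Bulk RNA sequencing of 30 libraries (6 groups of 5) was read from 2 deposited tables. The authors' table of raw counts holds whole reads per gene, and the authors' TPM table holds levels per length of gene, with lengths that are not given in the sources used here. Per the submitters' processing notes, Trimmomatic 0.36, STAR 2.5.2b and GRCm38/mm10 were used; counting tool, strand setting and annotation release are not given in the sources used here. Genes were filtered with filterByExpr by group (17774 of 49315 left, 99.969% of counts), scaled by TMM and fitted with robust quasi-likelihood models in edgeR 4.0.16 (R 4.3.3), 1 mean per group, 24 residual degrees of freedom, with calls where p, adjusted by Benjamini and Hochberg's method across the 17774 genes, was under 0.05. The fit was tested on simulated data; its pass criterion was changed after a first one on the share of changes called was missed at 2-fold changes, many of which were not called. An uncalled value therefore does not show that groups are alike. SE is the absolute log2 fold change over the square root of F. The members and lists were chosen with earlier results of these data known. Named beside the 7 were the 3 genes of smallest root mean square difference of centred log2 CPM (mean log2 CPM of at least 3), neighbours and hosted genes, and up to 3 called genes per list and comparison with the smallest adjusted p, of which 1 is not reported here. Alternatives were size factors (DESeq2 1.42.0), total counts, no filter, DESeq2, voom (limma 3.58.1), fits on only the libraries compared, log2(TPM + 1) and log2(TPM + 0.1), offsets for GC content and length, and each library left out. Omission of the 4 libraries with few genes, or of the 2 with over 1000 CPM of lung epithelium markers, was added after seeing the data. Reads carry no molecular identifiers, so library spread sets the precision.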

Additional observations from a re-analysis of the deposited data

Results flagged for a closer look

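In 8 of 42 groups of 5 libraries, each 1 RNA in 1 group, a single library stood apart by Dixon's ratio, its gap to the nearest library over the range of the group. The ratio was taken on log2 CPM, while the levels printed beside it are in CPM. Chance flags about 1 in 20 groups. Of the 8, 4 were in the libraries with few genes: Malat1 in NSG macro-met replicate 3 (ratio 0.913; 266 CPM, nearest 48.6), Rn7sk in NSG macro-met replicate 3 (0.85; 1756 CPM, nearest 96.6), Meg3 in NSG macro-met replicate 3 (0.826; 3.06 CPM, nearest 0.166) and Rn7sk in BALB/c tumour replicate 4 (0.897; 4897 CPM, nearest 280). The other 4 were in NSG DTC. Malat1 was highest in replicate 2 (0.733; 602 CPM, nearest 505), Neat1 and H19 were lowest in replicate 3 (0.787 and 0.745; 70.2 CPM, nearest 154, and 94.2 CPM, nearest 186), and Meg3 was lowest in replicate 1 (0.798; 0.0178 CPM, nearest 0.0825).

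A step differed between NSG and BALB/c hosts by the interaction term of edgeR in 7 cases. Between DTC and tumour the log2 difference, NSG minus BALB/c, was 3.30 ± 0.66 for Malat1 (adjusted p = 0.000348), 1.84 ± 0.34 for Neat1 (adjusted p = 0.000139) and 1.06 ± 0.21 for Gas5 (adjusted p = 0.00025), of which Neat1 and Gas5 lost the call with GC and length offsets (0.73 and 0.09). Between macro-met and DTC it was 3.86 ± 1.43 for Rn7sk (adjusted p = 0.0457) and 4.99 ± 1.43 for Meg3 (adjusted p = 0.00882), both lost without NSG macro-met replicate 3. Between macro-met and tumour it was 1.35 ± 0.34 for Neat1 (adjusted p = 0.0175) and 0.71 ± 0.21 for Gas5 (adjusted p = 0.0452). The Neat1 call was lost without NSG macro-met replicate 3 (1.08, adjusted p = 0.0521), and the Gas5 call on leaving out 15 of the 20 libraries one at a time.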

How the results depend on the processing

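No paired analysis was possible because the labels give no replicate numbers that groups share. Offsets for GC content and length reversed 7 values: Snhg1 in BALB/c macro-mets against BALB/c tumours (0.14), Neat1 (0.02), Gas5 (0.50) and Snhg1 (0.71) in NSG macro-mets against NSG DTC, Neat1 in NSG DTC against BALB/c DTC (-0.68), and Snhg1 in the host difference of DTC against tumour (-1.24) and of macro-met against DTC (0.89). The cause was not tested. Counts of called genes moved by over 1.5 times in 4 cases. NSG against BALB/c macro-mets gave 912 with DESeq2 and 887 with only the libraries compared (470 reported), the host difference in macro-met against DTC 2988 with the offsets (5002 reported), and that in macro-met against tumour 1596 with DESeq2 (929 reported). Leaving out 1 library moved no count by that much and reversed no called value. Over all 1969 values, 75 uncalled ones changed sign. The 3 tested calls of H19, in BALB/c DTC against BALB/c tumours and in macro-mets against DTC of each host, kept direction and call in every alternative run. The macro-met call in NSG hosts uses the NSG DTC libraries on which H19 was chosen. Low counts limit Meg3.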
